A study of Mus musculus with 2 samples.

Results

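The genes described here are 35 genes of sterol and fatty acid synthesis, chosen by name as targets and regulators of the sterol regulatory element-binding proteins (SREBPs), and all 35 were found among the 16881 RefSeq transcripts of the table. RNA sequencing compared immortalised C57BL/6 mouse embryonic fibroblasts that were p65+/+ with such fibroblasts that were p65-/-, to ask which genes differ in the presence and absence of p65, the NF-kB subunit encoded by Rela. Each genotype had 1 library, called wild-type and p65-null below, and the labels give no age, treatment, clone number or deleted exon. Since each genotype rests on 1 library, differences could not be set against replicate spread, no test was possible, and other differences between the 2 cell lines cannot be told apart from that of p65.

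The fragments assigned to the table's transcripts, inferred from the step size of its scaled values, came to 20794475.5 for the wild-type and 15441394 for the p65-null library, where 0.5 was assumed to be a single mate of a read pair. Rela had 1918 wild-type and 198.5 p65-null fragments, so its level was 6.90-fold lower in the library labelled p65-null (95% interval 5.96 to 8.03). All 10 fibroblast markers looked up were measured in both libraries, with summed levels of 12235 and 24969 normalised CPM (fragment counts scaled to library size). Collagen genes, Vim and Fn1 carry most of these sums, and the markers moved apart: Thy1 went from 82.9 to 9.64 normalised CPM and Pdgfrb from 199 to 150, while S100a4 went from 121 to 1508. Epithelial markers summed to 0.118 and 2.81 normalised CPM, with 4 of the 6 (Epcam, Cdh1, Krt18 and Krt5) at 0 in the wild-type library and 0 of the 6 in the p65-null library. The 2 hepatocyte markers found, Apoa1 (at 0 in the wild-type library) and Ttr, summed to 0.189 and 0.264. Endothelial markers summed to 3.40 and 2.18 (Cdh5 at 0 in the p65-null and Tek at 0 in the wild-type library), and the 3 haematopoietic ones found to 3.54 and 5.12 (Ptprc at 0 in the p65-null library). Ratios below are p65-null over wild-type normalised CPM, each with a 95% Clopper-Pearson interval that reflects counting error alone.

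Cells make cholesterol and its precursors from acetyl-CoA through the mevalonate pathway, and they make fatty acids from the same acetyl-CoA through malonyl-CoA. SREBPs are transcription factors held as precursors in the endoplasmic reticulum by the escort protein Scap, which Insig proteins retain when sterols are plentiful. When sterols are scarce, Scap carries the precursor to the Golgi, where proteases release the active factor, which raises transcription of the synthesis genes and of Insig1 itself. Oxidised sterols act on the liver X receptors (LXRs), which induce cholesterol exporters such as Abca1.

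As a group, the 35 genes stayed close to their level in the wild-type library. The p65-null library was at least 2-fold lower for 5 of them, Stard4, Idi1, Insig1, Sc5d and Hsd17b7, and at least 2-fold higher for 1, Tm7sf2, while 29 lay within 2-fold. The 5 lower genes are 14.3% of the set, against 13.7% of all 12135 measured genes (mean of at least 1 CPM), and the 1 higher gene is 2.86%, against 12.2%. The median log2 ratio was -0.08 for the 35 genes and -0.03 for all measured genes, and 21 of the 35 lay below 0, against 51.2% of all. In bulk RNA, fewer cells expressing a gene and less of its RNA per cell cannot be told apart. The share of lower genes was near that of the transcriptome. With the whole interval past 2-fold, 4 were lower (all but Hsd17b7), against 9.1% of all measured genes, and 0 were higher, against 7.95%.

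Scaling and base composition moved these values. With both libraries scaled to their ribosomal protein genes every log2 ratio shifts by -0.41. Then 7 of the 35 were at least 2-fold lower, against 3001 of all 12135 measured genes, and 0 were higher, against 925. Of the 35, 31 were then below 0, and the median log2 ratio of all measured genes was -0.43. The share of higher genes among all genes past 2-fold went from 46.9% to 23.6%. Upper quartile scaling shifts every log2 ratio by 0.11, which left 17 of the 35 below 0, with a median of 0.09 for all measured genes. The log2 ratio also followed the GC content of the transcript, with a Spearman coefficient across genes of 0.44 over 11990 measured genes and 0.56 over the 35, genes not being independent replicates and all sharing the same 2 libraries. Of the 2398 measured genes with the lowest GC content, up to 44.6%, 35.4% were at least 2-fold lower. Among these 2398 are 6 of the 35 genes, of which 4 were at least 2-fold lower: Stard4, Idi1, Sc5d and Hsd17b7. The median log2 ratio was -1.20 for these 6 and -0.71 for the 2398. After a loess correction for GC content and then transcript length, Stard4 and Insig1 were still at least 2-fold lower (10.2% of all genes were), and Abca1 was at least 2-fold higher (10.4% of all genes were). The corrected median was -0.25 for the 35 genes against -0.09 for all, and 26 of the 35 were below 0 against 55.6%. Corrected values are given below as corrected log2 ratios.

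**Figure D1:**
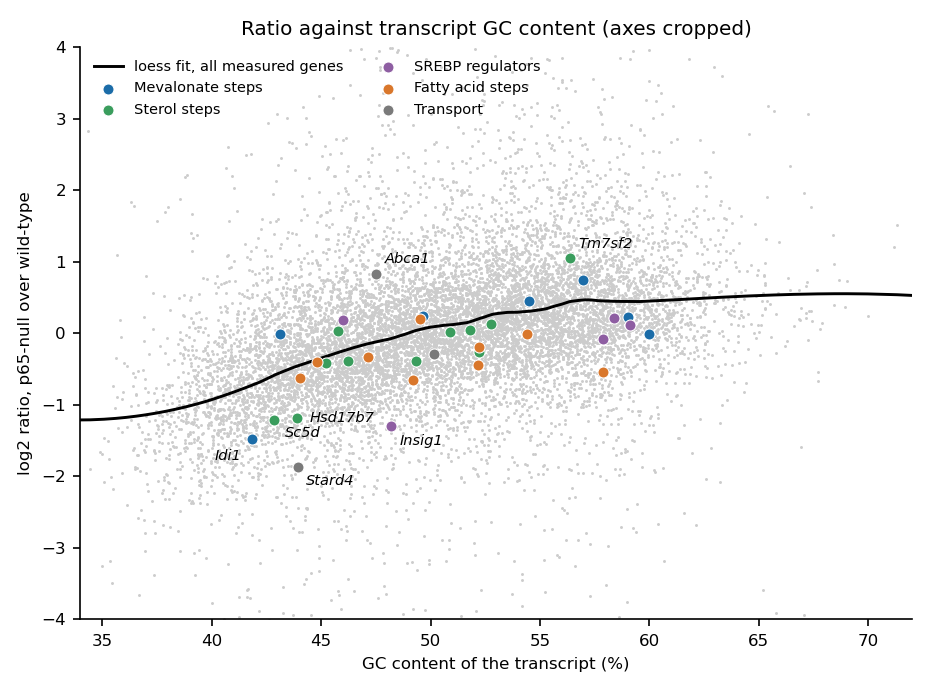
The log2 ratio of p65-null over wild-type (y axis) is plotted against the GC content of the transcript in percent (x axis), with all measured genes in grey, their loess fit as a line and the 35 genes coloured by pathway step. Stard4, Idi1, Sc5d and Hsd17b7 lie at the low GC end, where the fit itself is below 0, and Insig1 lies further right and well below the fit.

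Levels between genes were compared per kilobase of transcript. In the wild-type library the order from the top was Scd2 at 118 CPM per kb, Acly at 99.7, Fasn at 92.8, Fdps at 86.9 and Sqle at 70.0. In the p65-null library the same 5 genes led, with Scd2 at 135 CPM per kb, Fdps at 118, Acly at 73.3, Fasn at 63.6 and Sqle at 53.6. Fdps, which makes farnesyl diphosphate, thus stood ahead of Acly and Fasn in the p65-null library and behind them in the wild-type library. Abca1 had the lowest level in both, at 0.221 and 0.392 CPM per kb. Together the 35 genes took 0.451% of wild-type and 0.374% of p65-null fragments, and their summed level was 4421 normalised CPM with p65 and 3808 without it.

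**Figure D2:**
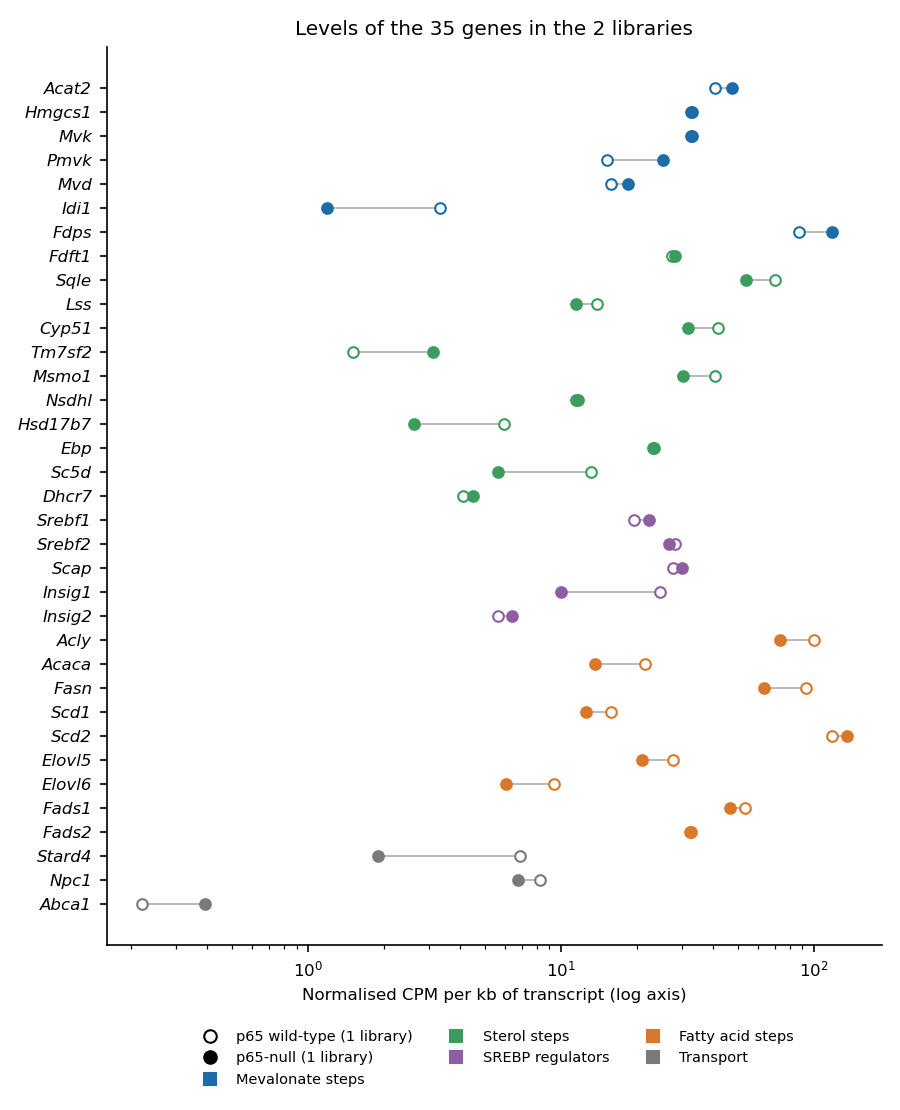
Each row is 1 of the 35 genes, and the x axis gives its level in normalised CPM per kb of transcript on a log axis, with an open point for the wild-type and a filled point for the p65-null library, coloured by pathway step. The widest gaps towards a lower p65-null level are those of Stard4, Idi1, Insig1, Sc5d and Hsd17b7, and the widest towards a higher level is that of Tm7sf2.

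Of the 7 genes of the mevalonate steps, Idi1 was lower in the p65-null library, Hmgcs1 and Mvk had intervals that included a log2 ratio of 0, and Acat2, Mvd, Fdps and Pmvk were higher, by 1.17-fold, 1.17-fold, 1.36-fold and 1.67-fold. Their median log2 ratio was 0.23, or -0.18 under ribosomal protein scaling and 0.05 after correction, and their summed level was 435 normalised CPM with p65 and 503 without it, a log2 ratio of 0.21 that became -0.20 under ribosomal protein scaling. Idi1 (NM_145360, chromosome 13, 8885606 to 8892396) encodes isopentenyl diphosphate isomerase, which turns the pathway's isoprene unit into its reactive form. It had 213.5 fragments with p65 and 54.5 without it, or 10.1 and 3.60 normalised CPM, 2.80-fold lower (2.07 to 3.84). The corrected log2 ratio was -0.78 (-1.24 to -0.34), within 2-fold.

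The enzymes around Idi1 did not share its value. Acat2, the thiolase that joins acetyl-CoA units, was at 91.1 normalised CPM with p65 and 107 without it. Hmgcs1, which makes HMG-CoA, was at 114 and 113 normalised CPM, a log2 ratio of -0.01 (-0.10 to 0.08), and after correction it was at 0.48. The mevalonate kinase gene Mvk was at 52.8 and 52.5 normalised CPM, and its corrected log2 ratio was -0.56, so Hmgcs1 and Mvk, level before correction, fell on opposite sides of 0 after it. Pmvk, the kinase of the next step, was at 18.1 and 30.2 normalised CPM, 1.67-fold higher (1.45 to 1.91), with a corrected log2 ratio of 0.17. The decarboxylase gene Mvd, listed under its non-coding variant NR_028354, was at 28.8 and 33.8 normalised CPM and Fdps at 120 and 163, log2 ratios of 0.23 and 0.44 and corrected log2 ratios of -0.35 and 0.05. Acat3, a close copy of Acat2 on the same chromosome, had more fragments than Acat2, and the share of Acat2 among both was 36.3% in the wild-type (34.99% to 37.6%) and 45.9% in the p65-null library (44.2% to 47.5%). The rule that divided reads between these copies was not stated.

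The 11 genes of the sterol steps, from squalene to cholesterol, had a median below the wild-type level, but their counts were near those of all measured genes. The median log2 ratio was -0.27, between -0.68 and -0.16 over the scalings tried and -0.22 after correction, and their summed level was 775 normalised CPM with p65 and 615 without it. Of the 11, 2 were at least 2-fold lower (18.2%, against 13.7% of all measured genes) and 1 at least 2-fold higher (9.09%, against 12.2%). The log2 ratio was below 0 for 6 (54.5%, against 51.2% of all), and after correction for 9 (81.8%, against 55.6%). Sc5d (NM_172769, chromosome 9, 42251592 to 42264300), a desaturase of the sterol ring, had 1332 fragments with p65 and 410 without it, or 62.8 and 27.1 normalised CPM. It was 2.32-fold lower (2.08 to 2.60), with a corrected log2 ratio of -0.59 (-0.76 to -0.43). Hsd17b7 (NM_010476, chromosome 1, 169949535 to 169969242), a ketosteroid reductase of sterol demethylation, had 581.5 and 182.5 fragments, or 27.4 and 12.05 normalised CPM. It was 2.28-fold lower (1.92 to 2.70), with a corrected log2 ratio of -0.68 (-0.93 to -0.44). Both genes thus kept an interval below 0 after correction but no longer passed 2-fold.

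The single higher gene of this group was also the least abundant of the 11 per kilobase in the wild-type library. Tm7sf2 (NM_028454, chromosome 19, 6062821 to 6067850), a sterol reductase, had 47 fragments with p65 and 69.5 without it, or 2.22 and 4.59 normalised CPM. It was 2.07-fold higher (1.41 to 3.06), and its log2 ratio was 1.05 (0.49 to 1.62), with 0.99 under total counts, 0.64 under ribosomal protein scaling, 0.96 with the wild-type library thinned and 0.52 after correction. Its gene span overlaps that of Vps51, on the same strand in GENCODE, by 532 bases, and Vps51 had a log2 ratio of 0.52.

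Among the other sterol enzymes, those that act on squalene and lanosterol were moderately lower. Squalene epoxidase, Sqle, was at 193 normalised CPM with p65 and 148 without it, 1.31-fold lower (1.24 to 1.38). Lanosterol synthase, Lss, was at 64.8 and 53.7 normalised CPM, the lanosterol demethylase Cyp51 at 164 and 125, and the sterol oxidase Msmo1 at 83.2 and 62.3. These 4 enzymes had log2 ratios of -0.39, -0.27, -0.39 and -0.42, below 0 under each scaling tried, and corrected log2 ratios of -0.46, -0.44, -0.15 and -0.25. Fdft1, which makes squalene, was at 101 and 104 normalised CPM, the dehydrogenase Nsdhl at 24.7 and 25.3, the isomerase Ebp at 40.2 and 40.7 and the reductase Dhcr7 of the last steps at 11.6 and 12.6. The intervals of these last 4 genes all included a log2 ratio of 0. After correction Fdft1 was at -0.15 (-0.24 to -0.05) and Ebp at -0.22 (-0.37 to -0.07), near Cyp51 and Msmo1. Nsdhl was then at 0.17 (-0.03 to 0.36) and Dhcr7 at -0.16 (-0.44 to 0.12). Cyp51 overlaps Akap9 by 166 bases and Fdft1 overlaps Ctsb by 774, each on the opposite strand, and whether counting used strand was not stated.

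**Figure D3:**
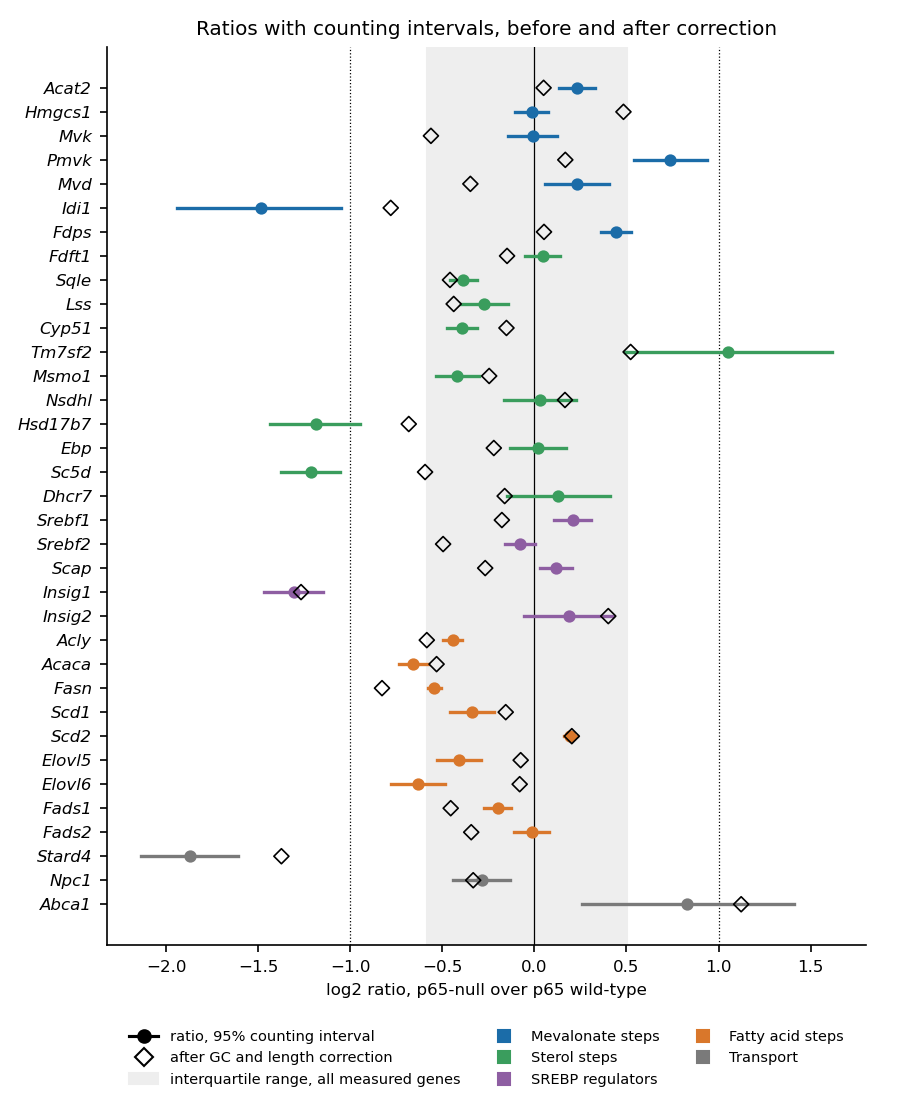
For each of the 35 genes the filled point gives the log2 ratio of p65-null over wild-type (x axis), the bar its 95% counting interval and the open diamond the ratio after the GC and length correction; grey shading is the interquartile range of all measured genes, from -0.58 to 0.50, and dotted lines mark 2-fold. Past the dotted lines lie Stard4, Idi1, Insig1, Sc5d, Hsd17b7 and Tm7sf2 as points, and Stard4, Insig1 and Abca1 as diamonds.

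Among the 5 regulators, Insig1 was low in the p65-null library while the SREBP genes and Scap were close to the wild-type level. Insig1 (NM_153526, chromosome 5, 28071412 to 28078662) had 1412.5 fragments with p65 and 408 without it, or 66.6 and 26.9 normalised CPM. It was 2.47-fold lower (2.21 to 2.77), and its corrected log2 ratio of -1.27 (-1.43 to -1.11) was close to the uncorrected -1.31. Insig2, a paralog that also retains Scap and is not itself a classical SREBP target, had 321 and 261 fragments, or 15.1 and 17.2 normalised CPM, a log2 ratio of 0.19 (-0.06 to 0.43). After correction Insig2 was at 0.40 (0.16 to 0.64), and under ribosomal protein scaling at -0.22. The share of Insig1 among the fragments of both paralogs, which no scaling between libraries can move, was 81.5% in the wild-type (79.6% to 83.3%) and 61.0% in the p65-null library (57.2% to 64.7%).

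The SREBP precursors are encoded by Srebf1, whose products favour fatty acid genes, and Srebf2, whose product favours sterol genes. Srebf1 was at 83.2 normalised CPM with p65 and 96.1 without it, and Srebf2 at 143 and 136, with log2 ratios of 0.21 (0.11 to 0.31) and -0.08 (-0.16 to 0.00). Scap was at 117 and 127 normalised CPM, a log2 ratio of 0.12 (0.03 to 0.20). After correction Srebf1, Srebf2 and Scap were at -0.18, -0.50 and -0.27, and under ribosomal protein scaling at -0.20, -0.49 and -0.29. None of the 3 passed 2-fold in these fits.

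Promoter sequence was available from RefSeq (GRCm38.p6, 250 bases before to 50 after each start) for 27 of the 35 genes. SREBPs bind sterol regulatory elements and also E-boxes, usually beside the CCAAT box bound by NF-Y. The motif CCAAT, searched on both strands like all motifs here, was present in 21 of the 27 (77.8%), against 41.1% of the 27025 genes with such a promoter and 43.7% of the measured ones. The palindromic E-box CACGTG was present in 7 of the 27 (25.9%), against 8.09% of all and 11.9% of measured genes. It was found in 3 of the 4 lower genes that had a promoter sequence (Hsd17b7, Sc5d and Insig1, but not Idi1) and also in Dhcr7, Scap, Elovl5 and Abca1, which were not lower by 2-fold. The 35 genes were chosen as SREBP targets and regulators, so these shares describe that choice, and a relation to p65 was not tested. The windows of the 3 lower genes and of 3 that were not are shown so that their flanks can be compared, each 5′ to 3′ on the gene's strand with the E-box in capitals.
Insig1, chr5:28071299-28071328, plus strand: gctgggtgaggtCACGTGgctccggtggca
Hsd17b7, chr1:169969331-169969360, minus strand: ggacccttgtgtCACGTGgctccgcccctc
Sc5d, chr9:42264381-42264410, minus strand: ctacgcggcgacCACGTGaccgccgcgacc
Dhcr7, chr7:143823223-143823252, plus strand: cgctgtgatgaaCACGTGgcaaaaagcagc
Elovl5, chr9:77917192-77917221, plus strand: actgccccgagaCACGTGaaccacaggaga
Abca1, chr4:53160025-53160054, minus strand: gggccatgtctcCACGTGctttctgctgag

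A sterol regulatory element of the form TCACNCCAC was found in 1 of the 27 promoters, that of Hmgcs1, against 1.44% of all genes. Its shorter core CACNCCAC, which the longer form contains, was found in 3, those of Acat2, Hmgcs1 and Insig1, against 7.12% of all genes. An NF-kB-type motif, GGNNTTTCC, was found in 3, those of Hmgcs1, Mvd and Srebf1, against 6.62% of all genes. With G required before it on the motif's strand, it was found in 1, that of Mvd, against 1.89% of all genes. That form leaves out some sequences of the longer NF-kB consensus and admits others outside it. Its count therefore does not show that Mvd holds that consensus, or that Hmgcs1 and Srebf1 lack it. None of Hmgcs1, Mvd and Srebf1 was 2-fold apart between the libraries, against 25.9% of all measured genes, and 3 genes are few to set against that share. The windows of these 3 genes are shown because they hold the sterol element or the NF-kB-type form as searched, in capitals. The NF-kB-type form reads on the other strand in each.
Hmgcs1, sterol element, chr13:119690204-119690233, plus strand: cgtcaccgtcTCACCCCACttcccaggtcc
Hmgcs1, NF-kB type, chr13:119690268-119690297, plus strand: cggcagcgagGGAAAACCCtagcgagtccc
Mvd, NF-kB type, chr8:122443450-122443479, minus strand: ggacagcacgGGAAAAGCCcggccagcggg
Srebf1, NF-kB type, chr11:60220629-60220658, minus strand: gggcttgatgGGAAACCCCgcccctccgct
The Srebf1 window lies inside the span of its gene, 60199084 to 60224186, at a start other than the outermost one. These matches describe the letters in the windows, and binding was not measured.

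Genes of the fatty acid steps were lower in the p65-null library by a modest margin. Of the 9, 8 were below 0, against 51.2% of all measured genes, and 0 were past 2-fold either way, against 25.9%. The number below 0 was 7 under upper quartile and 9 under ribosomal protein scaling, where the median of all measured genes was 0.09 and -0.43. The median log2 ratio of the 9 was -0.41, between -0.82 and -0.30 over the scalings tried and -0.34 after correction. Fasn (NM_007988, chromosome 11, 120805958 to 120825166), the multifunctional fatty acid synthase, had 19763.5 fragments with p65 and 9686 without it, or 932 and 639 normalised CPM. It was 1.46-fold lower (1.42 to 1.49), and its corrected log2 ratio was -0.83 (-0.86 to -0.79), the lowest of the 9. Acly, which supplies cytosolic acetyl-CoA from citrate, was at 441 and 324 normalised CPM, 1.36-fold lower (1.31 to 1.41). Acaca, the acetyl-CoA carboxylase that makes malonyl-CoA, was at 193 and 123 normalised CPM, 1.58-fold lower (1.49 to 1.67). The 3 enzymes that run from citrate to palmitate were thus all lower, by 1.36-fold to 1.58-fold. Their corrected log2 ratios were -0.58 for Acly, -0.53 for Acaca and -0.83 for Fasn. Under ribosomal protein scaling Acaca was at -1.07 and Elovl6 at -1.04, past 2-fold.

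The desaturases and elongases that modify the finished chain differed among themselves. Scd1 and Scd2 encode stearoyl-CoA desaturases, which make monounsaturated fatty acids, and they are neighbours on chromosome 19. Scd1 was at 76.4 normalised CPM with p65 and 60.4 without it, 1.26-fold lower (1.16 to 1.37). Scd2 was at 642 and 735 normalised CPM, a log2 ratio of 0.19 (0.16 to 0.23), or -0.21 under ribosomal protein scaling, and it was the single gene of the 9 above 0. Scd2 took 89.4% of the fragments of the pair in the wild-type (88.9% to 89.9%) and 92.4% in the p65-null library (91.9% to 92.9%), and per kilobase of transcript its share was 88.2% and 91.5%, so it was the main isoform in both.

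The elongase of polyunsaturated chains, Elovl5, was at 76.9 and 58.0 normalised CPM, and Elovl6, which lengthens palmitate, at 56.0 and 36.1. Their log2 ratios were -0.41 and -0.63, and after correction -0.07 and -0.08, with intervals that included 0. Fads1 and Fads2 encode the desaturases of polyunsaturated fatty acids. Fads1 was at 184 and 161 normalised CPM, with a log2 ratio of -0.20 (-0.27 to -0.12), and Fads2 at 103 and 101, with -0.01 (-0.11 to 0.08). After correction Fads1 was at -0.45 (-0.53 to -0.38) and Fads2 at -0.34 (-0.44 to -0.25), so the correction moved both desaturases away from 0 and both elongases towards it. Of the adipocyte markers looked up, Fabp4 and Pparg were found, with summed levels of 13.2 normalised CPM with p65 and 11.9 without it, Fabp4 going from 5.83 to 2.77 and Pparg from 7.41 to 9.14.

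The 3 transport genes included the lowest ratio of the 35. Stard4 (NM_133774, chromosome 18, 33199138 to 33213862), a soluble carrier that moves cholesterol between membranes, had 743 fragments with p65 and 145.5 without it, or 35.1 and 9.61 normalised CPM. It was 3.65-fold lower (3.05 to 4.39), and its corrected log2 ratio was -1.37 (-1.64 to -1.12). Npc1, which exports cholesterol from the lysosome, was at 43.1 and 35.3 normalised CPM, 1.22-fold lower (1.09 to 1.36), and its span overlaps Rmc1 on the opposite strand by 967 bases. Abca1 (NM_013454, chromosome 4, 53030789 to 53159988), an exporter of cellular cholesterol and a classical LXR target, had 48 and 61 fragments, or 2.26 and 4.03 normalised CPM. It was 1.78-fold higher (1.20 to 2.65), and its corrected log2 ratio was 1.12 (0.55 to 1.70). Abca1 thus lay opposite to Stard4 and Npc1, on few fragments in either library.

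Other genes of the pathway were taken from 6 lists, whose shares past 2-fold are to be read against 13.7% lower and 12.2% higher among all measured genes, or 10.2% and 10.4% after correction. Among 15 measured genes of the isoprenoid branches, 3 were at least 2-fold lower (20%) and 0 higher: Nus1, a subunit of the enzyme for dolichol, Pggt1b, a subunit of a protein prenyltransferase, and Ggps1, which makes geranylgeranyl diphosphate. Their log2 ratios were -1.17, -1.31 and -1.05, and after correction -0.46, -0.38 and -0.07, all within 2-fold. The single gene of the 15 past 2-fold after correction was Pdss2, a subunit of the enzyme for the ubiquinone side chain, at -1.02. Among 8 measured partners of sterol enzymes, 1 was at least 2-fold lower (12.5%), Por, and 0 higher. Por encodes the reductase that passes electrons to Cyp51 and to Sqle, and it was at 185 and 60.9 normalised CPM, 3.04-fold lower (2.83 to 3.27), with a corrected log2 ratio of -2.09. Cyb5r3, a cytochrome b5 reductase and the most abundant gene of this list per kilobase in both libraries, lay on the other side, at 412 and 821 normalised CPM and 1.99-fold higher (1.94 to 2.05), past 2-fold under upper quartile scaling and at a corrected log2 ratio of 0.45. Among 14 measured genes of SREBP control, which hold processing and degradation factors, the transcription partners Nfya, Nfyb, Nfyc and Sp1, and a kinase subunit gene, Prkaa1, 1 was at least 2-fold lower (7.14%), Mbtps2, a protease that releases active SREBP, at 21.6 and 6.14 normalised CPM and 3.52-fold lower (2.81 to 4.45), or a log2 ratio of -0.85 after correction. Mbtps1, the protease that acts before it, had a log2 ratio of 0.65 and was 1 of 3 genes of this list above 0. The other 11 of the 14 were below 0 (78.6%, against 51.2% of all measured genes), and the median log2 ratio was -0.34. After correction 8 were below 0 (57.1%, against 55.6%), and the median was -0.05. Prkaa2, another kinase subunit gene of this list, had 42 wild-type and 0 p65-null fragments and fell below the minimum mean of 1 CPM.

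Among 23 other measured fatty acid genes, 4 were at least 2-fold higher (17.4%) and 2 lower (8.70%), or 5 and 2 after correction. The higher ones included the elongase Elovl7 at 3.01-fold (2.48 to 3.65), the phosphatidate phosphatase Lpin1 at 2.85-fold (2.26 to 3.61) and Acss2, which makes acetyl-CoA from acetate, at 2.74-fold (1.91 to 3.97). The lower ones were Acsl4, which activates arachidonic acid, at 4.71-fold (4.06 to 5.48) and Elovl4, which makes very long chains, at 4.77-fold (3.15 to 7.51). These 5 genes kept their side of 2-fold after correction, at 2.29, 1.49, 1.21, -1.17 and -1.74.

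Among 20 measured genes of the LXR arm and of sterol transport, 4 were at least 2-fold higher (20%) and 1 lower (5%), or 5 and 1 after correction, and their median log2 ratio was 0.31, or -0.10 under ribosomal protein scaling and -0.02 after correction. Nr1h3, which encodes LXR alpha, had 8 fragments with p65 and 38 without it, a log2 ratio of 2.73 (1.61 to 4.04). Npc2, the lysosomal partner of Npc1, was 2.79-fold higher (2.66 to 2.92), and Gramd1b, a carrier of plasma membrane cholesterol, was 3.53-fold higher (2.19 to 5.85). Scarb1, a lipoprotein receptor, was 2.04-fold lower (1.91 to 2.19), with a log2 ratio of -1.51 after correction. Npc1 and Npc2 therefore differed in direction.

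Genes of fatty acid oxidation, listed for comparison, had a median above 0. Of 17 measured, 3 were at least 2-fold higher (17.6%) and 0 lower, and 15 were above 0, against 48.8% of all measured genes, with a median log2 ratio of 0.65, or 0.25 under ribosomal protein scaling and 0.29 after correction. The thiolase Acaa1a was 2.50-fold higher (2.23 to 2.81), the thiolase Acaa2 2.13-fold (1.93 to 2.34) and the acyl-CoA dehydrogenase Acadvl 2.02-fold (1.91 to 2.15). After correction these 3 were at 0.76, 0.73 and 0.59, within 2-fold, and the single gene then past it was Ppard, a nuclear receptor, at -1.01. The difference between the lists was not tested, since 1 library per genotype gives no replicate.

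**Figure D4:**
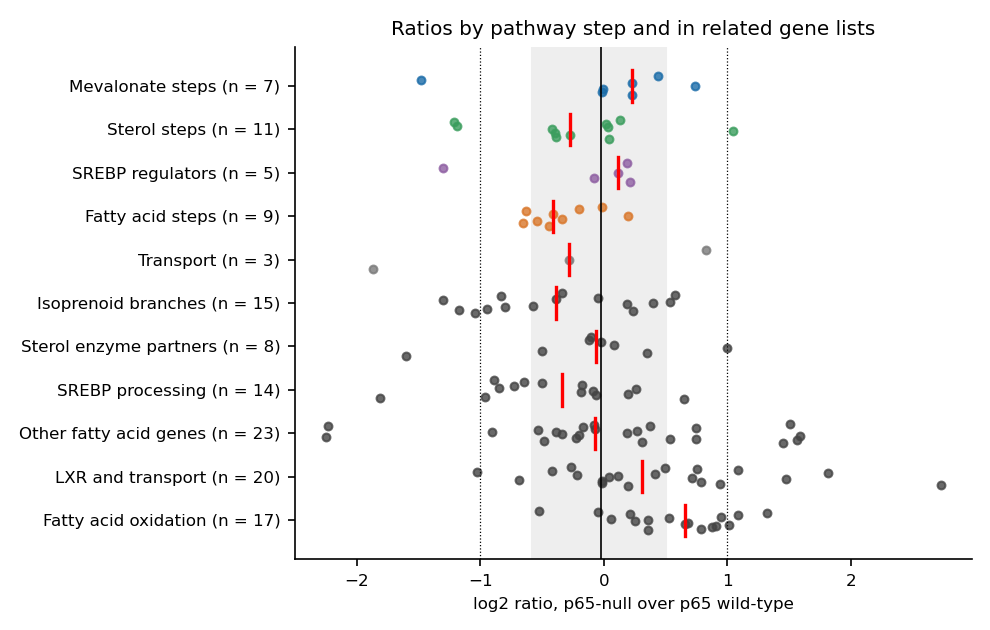
Each point is the log2 ratio of p65-null over wild-type (x axis) of 1 measured gene, in rows for the 5 pathway steps of the 35 genes (coloured) and 6 related lists (dark grey), with a red bar at each row's median; grey shading and the black line are the interquartile range and the median of all measured genes, and dotted lines mark 2-fold. The medians run from -0.41 for the fatty acid steps to 0.65 for fatty acid oxidation.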

How the data were processed

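RNA from 1 wild-type and 1 p65-null fibroblast library was sequenced on an Illumina HiSeq 4000, per the labels' protocols. Tools listed by the submitters' processing notes, without roles, are STAR 2.4, bcl2fastq 2.16, edgeR and HOMER, and the build is mm10. The deposited table is named as raw counts, but it holds a scaled signal: values are not whole, and both columns total about 18117930. All 11520 wild-type and 12660 p65-null values checked were whole multiples of 1 step, 0.436 and 0.587, within 0.0055 units. Even multiples were in excess (72.8% and 75.7% of values up to 20 steps), so 2 steps were taken as 1 fragment. The unit assumed beforehand, recovered fragments, was kept.

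Transcripts were matched to symbols through RefSeq (16743) or GENCODE M21 (83), and 55 had no match; the unmatched NR_046233 took 3.03% and 3.75% of fragments. Library sizes were scaled with edgeR 4.0.16 by TMM (factors 1.02 and 0.981) in R 4.3.3. A count of 0 was set to 3 fragments (0.142 and 0.198 CPM) in ratios. Intervals are Clopper-Pearson at 95% (SciPy 1.17.1). Molecular tags are not mentioned in the labels, and intervals and floors reflect counting error alone. The ratio step was tested on simulated data. The GC and length correction (loess, span 0.3) had values for 98.8% of measured genes.

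The 35 genes and all lists were chosen with earlier results of these data known. Every one of the 35 is named. From each related list the text names up to 3 genes higher and 3 lower past 2-fold by the interval end nearest 0; Mbtps1, Cyb5r3, Pdss2, Ppard, Acat3, the other SREBP control genes and the overlapping genes were named after their values were seen. Motifs were also chosen after the data were seen, from several forms tried; further forms of the sterol element and of the NF-kB motif are not shown. Other genes of these pathways are not analysed here. Alternatives were upper quartile, ribosomal protein, total count and DESeq2 1.42.0 scaling, thinning, leaving out the 10 most abundant genes, no minimum or 5 CPM, calls on the interval end, a prior count of 2 and the correction.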

Additional observations from a re-analysis of the deposited data

How the results depend on the processing

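No paired analysis was possible because each genotype has 1 library. The count of higher genes past 2-fold, 1 of 35 (Tm7sf2), was 0 under total counts, under ribosomal protein scaling, with the deeper library thinned, with a minimum of 5 CPM and when the whole interval had to pass 2-fold. It was 1 after the GC and length correction, with Abca1 in place of Tm7sf2. The count of lower genes, 5, was 2 after that correction, and the median log2 ratio, -0.08, was 0.034 under upper quartile scaling, -0.49 under ribosomal protein scaling, -0.20 with a minimum of 5 CPM and -0.25 after the correction. No ratio past 2-fold changed sign under the alternatives run. DESeq2 size factors, the prior count of 2, thinning and leaving out the 10 most abundant genes kept the ratios of all 35 genes and Rela within their counting intervals, while the correction moved 28 of these 36 ratios, ribosomal protein scaling 33, upper quartile factors 15 and total counts 3 beyond them. Depth limits Tm7sf2 and Abca1 most, with 47 and 48 wild-type fragments.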
